A study of Homo sapiens with 6 samples.

Results

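The costimulatory and checkpoint receptors of T cells examined here are 10 genes, chosen by their symbols from the 61541 Ensembl genes of the count table: the costimulatory receptors ICOS, TNFRSF9 (4-1BB), TNFRSF4 (OX40), TNFRSF18 (GITR) and CD27, and the inhibitory receptors CTLA4, PDCD1 (PD-1), TIGIT, LAG3 and HAVCR2 (TIM-3). Each of the 10 symbols matched 1 entry, and 6 of the 10 genes had enough counts to be tested. Their transcripts were measured by bulk RNA-seq in H9 cells, an established human cutaneous T-cell lymphoma line, which were exposed to DMSO, the solvent control, or to AZD4573, a selective inhibitor of the kinase CDK9, at 50 nM for 4 hours. Each group had 3 libraries, all from this single line, which limits it as a model of T-cell lymphoma. The comparison asks which transcripts depend on CDK9, the kinase that releases paused RNA polymerase II into productive elongation.

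A T cell needs a second signal besides that of its antigen receptor, and the costimulatory receptors supply it. ICOS is a relative of CD28 that recruits phosphoinositide 3-kinase, whereas TNFRSF9, TNFRSF4, TNFRSF18 and CD27 belong to the TNF receptor superfamily and signal through TRAF adaptors to NF-kB. The inhibitory receptors dampen the response: CTLA4 competes with CD28 for CD80 and CD86, PDCD1 recruits the phosphatase SHP-2 on binding PD-L1, TIGIT competes with CD226 for PVR, LAG3 binds MHC class II, and HAVCR2 has galectin-9 among its ligands. Most of these receptors are induced upon activation of normal T cells, and several are targets of therapeutic antibodies.

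The libraries held 70367303 to 76571157 counts with DMSO and 52101868 to 63795185 with AZD4573, so that 3 counts, the limit that a count of 0 allows, corresponded to 0.0392 to 0.0576 CPM (counts per 1000000 counts of the library). Intervals from counts and such limits cover counting error only. The T-cell antigen receptor genes were abundant, and the 11 T-cell markers summed to 1073 to 1093 CPM with DMSO and 1232 to 1252 CPM with AZD4573. However, CD2, a defining T-cell marker, was near 0 (mean 0.109 CPM with DMSO and 0.0116 CPM with AZD4573). The 15 markers of other cell types summed to 213 to 235 CPM and 218 to 226 CPM, nearly all of it from CD79A (59.9 and 90.2 CPM on average) and EPCAM (161 and 130 CPM), with CD8B, NCR1 and HBB at 0 in each library. Their part in the receptors' values was not tested. Mitochondrial mRNAs took 3.04% to 3.22% of the counts with DMSO and 4.67% to 4.98% with AZD4573.

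The sequences before the transcription starts of ICOS, TNFRSF18 and TNFRSF9 are shown. In the results that follow, ICOS and TNFRSF9 are the abundant receptors, and TNFRSF18 is 1 of the scarce ones but not the scarcest. RefSeq promoter sequences (GRCh38.p14) were found for 7 of the 10 genes, and TNFRSF4, LAG3 and HAVCR2 are named only. The windows of ICOS and TNFRSF18 are the 250 bases before the start, 5′ to 3′, with each CpG dinucleotide in capitals. They lie at chr2:203936513-203936762 on the plus strand for ICOS and at chr1:1206593-1206842 on the minus strand for TNFRSF18, upstream of the first exon of each gene.
ICOS: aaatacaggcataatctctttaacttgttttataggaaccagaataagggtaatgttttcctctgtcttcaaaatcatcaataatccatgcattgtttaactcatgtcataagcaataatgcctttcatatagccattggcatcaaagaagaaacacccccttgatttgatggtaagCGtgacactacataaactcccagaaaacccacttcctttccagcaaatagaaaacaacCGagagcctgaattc
TNFRSF18: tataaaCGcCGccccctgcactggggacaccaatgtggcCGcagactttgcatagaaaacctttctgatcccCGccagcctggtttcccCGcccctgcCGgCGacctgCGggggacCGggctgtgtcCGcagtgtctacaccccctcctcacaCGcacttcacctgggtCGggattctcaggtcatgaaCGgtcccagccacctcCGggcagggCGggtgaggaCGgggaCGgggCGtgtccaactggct
The window of ICOS, the most abundant of the 10 receptors per length, had 36.8% G and C and 2 CpG, below the median of 35114 promoters (58% and 11 CpG). The window of TNFRSF18, 1 of the scarce receptors, had 65.6% G and C and 18 CpG. Other scarce receptors had fewer CpG: CTLA4 had 40.4% G and C and 4 CpG, TIGIT 38.4% and 5, CD27 46% and 2, and PDCD1 68.4% and 7. The abundant TNFRSF9 had 51.6% and 7. A link between these letters and the level was not tested.

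For TNFRSF9, only 30 bases around a match to the NF-kB consensus are shown, at chr1:7940893-7940922 on the minus strand, because part of its window is exonic in another transcript of the gene. The capitals mark 2 overlapping matches, the nearer of which ends 63 bases before the start.
TNFRSF9: agctgtggtGGGAATTTCCCatgagacccc
A match to this consensus was present in 9.96% of all promoter windows, and of the 7 receptors PDCD1 also had 1 pair of overlapping matches. The AP-1 motif TGANTCA, found in 6.57% of windows on either strand, was present before TNFRSF9 and CD27. The TATA box letters TATAAA, in 10.7% of windows on either strand, were present before ICOS and TNFRSF18, but 216 and 244 bases from the start. Before ICOS they lie on the opposite strand and read TTTATA in the printed window. The NFAT core GGAAA, also searched on either strand, was present in all 7 windows and in 55.7% of all windows. In the windows printed for ICOS and TNFRSF18 it reads TTTCC, on the opposite strand. The GATA motif AGATAA, in 9.17% of all windows on either strand, was in none of the 7. A match of letters is a description, and none of these positions is known from these data to be bound.

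At baseline, 2 costimulatory receptors made up nearly all of the receptor transcripts. ICOS and TNFRSF9 took 99.0% ± 0.416 (SD, n = 3) of the counts of the 10 genes with DMSO and 95.2% ± 0.756 (SD, n = 3) with AZD4573. Per kilobase of exon, the DMSO level was 14.8 ± 0.596 CPM for ICOS and 6.89 ± 0.399 CPM for TNFRSF9 (SD, n = 3). TNFRSF4 followed at 0.131 CPM per kilobase, then TNFRSF18 at 0.0878, PDCD1 at 0.0845, TIGIT at 0.0264, HAVCR2 at 0.0103, LAG3 at 0.00774, CD27 at 0.00357 and CTLA4 at 0.00187. In that order, the libraries of neighbours did not overlap between ICOS and TNFRSF9, TNFRSF9 and TNFRSF4, PDCD1 and TIGIT, and TIGIT and HAVCR2, while the other neighbours overlapped and their order is open. With AZD4573, ICOS (9.19 CPM per kilobase) and TNFRSF9 (3.86) again came first and TNFRSF4 (0.631) again followed, but CD27 (0.0824) stood sixth rather than ninth, in front of TIGIT (0.0522), with its libraries overlapping those of both neighbours. The 5 inhibitory receptors were therefore all below 0.2 CPM per kilobase in each library of both groups.

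**Figure D1:**
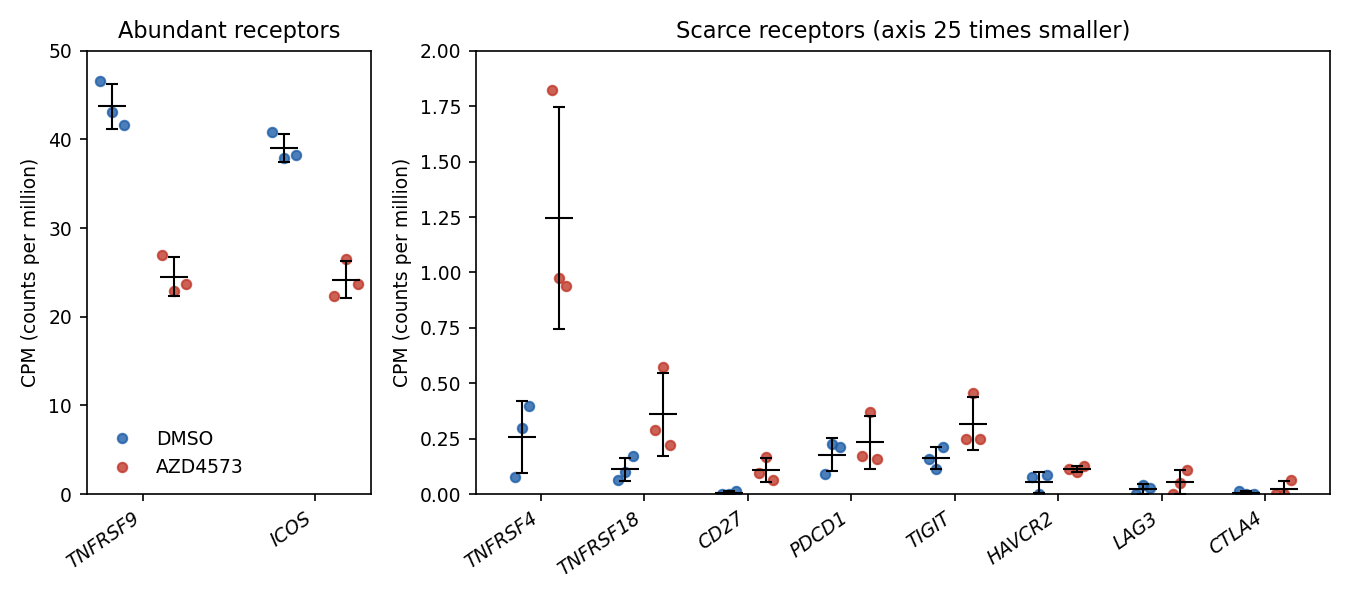
Expression level in CPM of the 10 receptors in each of the 3 DMSO (blue) and 3 AZD4573 (red) libraries, with the mean (black line) and SD (error bars); the right panel has a smaller vertical range than the left. TNFRSF9 and ICOS were near 40 CPM with DMSO and between 22.4 and 27.0 CPM with AZD4573, whereas TNFRSF4 reached 0.941 to 1.82 CPM with AZD4573 and the other receptors on the right stayed below 0.6 CPM.

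Both abundant receptors were lower upon AZD4573 treatment, and 3 of the scarce ones were higher. With calls made where the adjusted p was under 0.05 and the levels differed by 1.5-fold or more (edgeR quasi-likelihood test, Benjamini-Hochberg over 17678 genes), 1 of the 6 receptors tested fell (TNFRSF9) and 3 rose (TNFRSF4, TNFRSF18 and TIGIT), beside 23.7% of all genes tested that were lower and 22.7% that were higher (46.4% in either direction). By the adjusted p alone 2 receptors were lower and 3 higher, beside 37.4% and 37.3% of all genes. The libraries of the 2 groups did not overlap for these same 5 receptors, beside 42.9% of all genes without overlap and lower and 34.2% without overlap and higher. The background depended on the level: of the 4328 genes with a mean under 1 CPM 37.4% rose and 13.4% fell, against 17.9% and 27.0% of the 13350 genes at or above 1 CPM, a split chosen after seeing the data. Only ICOS and TNFRSF9 exceeded the filter's minimum of 0.149 CPM in all 6 libraries. TNFRSF4, TIGIT and PDCD1 exceeded it in 2 DMSO and all 3 AZD4573 libraries, and TNFRSF18 in 1 DMSO and all 3 AZD4573 libraries. The AZD4573 libraries were thus needed for these 4 to enter the test, and their adjusted p-values below carry this limit. The count of 3 rises is therefore not read against the background, and no reading is made of the set as a whole.

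TNFRSF9, which sustains survival of activated T cells through TRAF adaptors, had 46.6, 43.1 and 41.6 CPM in the DMSO libraries and 27.0, 22.9 and 23.7 CPM in the AZD4573 libraries. All AZD4573 libraries lay well below the lowest DMSO library. The log2 fold change was -0.73 ± 0.0685 (SE), or 1.66-fold lower, with an adjusted p of 3.84e-07 by the edgeR quasi-likelihood test (Benjamini-Hochberg). It had 2937 to 3565 counts with DMSO and 1364 to 1510 with AZD4573, the range in which counting error is small. Of all genes tested, 20.6% had a lower log2 fold change. In bulk RNA, fewer cells with a transcript and less of it per cell cannot be told apart.

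ICOS, the costimulatory relative of CD28, had 40.8, 37.9 and 38.3 CPM with DMSO and 22.4, 26.5 and 23.7 CPM with AZD4573. The groups were again well apart. Its log2 fold change of -0.58 ± 0.0701 (SE) had an adjusted p of 4.63e-06 (edgeR quasi-likelihood test, Benjamini-Hochberg), but the 1.499-fold difference missed the threshold of 1.5, so ICOS was not counted among the receptors that fell. It is called lower without TMM scaling factors, without the filter on low counts or with a replicate block, so this side of the threshold rests on the setting.

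Whether ICOS and TNFRSF9 were lowered to a different extent could not be decided with 3 libraries per group. The counts of TNFRSF9 per count of ICOS, which are not corrected for length, were 1.12 ± 0.029 with DMSO and 1.02 ± 0.171 with AZD4573 (SD, n = 3; two-sided exact permutation p = 0.4). Against CD28, which CTLA4 separates from ICOS on chromosome 2, the count ratio of ICOS was 6.46 ± 0.580 and 5.76 ± 0.398, and that of TNFRSF9 was 7.24 ± 0.599 and 5.86 ± 0.648 (exact permutation p = 0.2 for both, 0.3 after Benjamini-Hochberg adjustment over 3 ratios). This test cannot go below 0.1 in this design, so it could not have passed a threshold of 0.05, and it does not show that the genes moved alike. Relative to CD3E, a chain of the antigen receptor complex that rose (log2 fold change 0.69 ± 0.0404, SE), the ratio went from 0.244 to 0.101 for ICOS and from 0.274 to 0.103 for TNFRSF9, with no overlap between the groups.

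TNFRSF4, which prolongs the expansion of activated T cells, had 6, 21 and 28 counts in the DMSO libraries (0.0784, 0.298 and 0.397 CPM) and 95, 58 and 60 counts in the AZD4573 libraries (1.82, 0.976 and 0.941 CPM). The lowest AZD4573 library exceeded the highest DMSO library, and the 2 groups each held 1 library apart from the others, the first DMSO library low and the first AZD4573 library high. The log2 fold change was 2.37 ± 0.436 (SE), or 5.18-fold, with an adjusted p of 0.000237 by the edgeR quasi-likelihood test (Benjamini-Hochberg), and it exceeded that of 95.03% of all genes tested. It ranged from 1.93 to 2.81 when 1 library was left out, and stayed called.

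TNFRSF18, another TNF receptor with a costimulatory role that is also high on regulatory T cells, had 5, 7 and 12 counts with DMSO and 15, 34 and 14 counts with AZD4573. In CPM these were 0.0653, 0.0995 and 0.170 against 0.288, 0.572 and 0.219, without overlap but with the second AZD4573 library far above the others. The log2 fold change was 1.79 ± 0.512 (SE; adjusted p = 0.00627, edgeR quasi-likelihood test, Benjamini-Hochberg). Without that library it was 1.27 with an adjusted p of 0.0658 and was no longer called.

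TIGIT, the inhibitory receptor for PVR, had 12, 8 and 15 counts with DMSO and 13, 27 and 16 counts with AZD4573, or 0.157, 0.114 and 0.213 CPM against 0.250, 0.454 and 0.251 CPM. The 2 groups did not overlap, although the highest DMSO library and the lowest AZD4573 library differed by few counts. Its log2 fold change of 1.08 ± 0.437 (SE) passed narrowly, with an adjusted p of 0.0383 (edgeR quasi-likelihood test, Benjamini-Hochberg). The call was lost in DESeq2 (adjusted p = 0.0855), without TMM factors (0.0586), and when the first or second DMSO library or the second AZD4573 library was left out (0.0914, 0.145 and 0.218).

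PDCD1, the receptor for PD-L1, had 7, 16 and 15 counts with DMSO and 9, 22 and 10 counts with AZD4573, and the groups overlapped. Its log2 fold change was 0.51 ± 0.501 (SE; adjusted p = 0.368, edgeR quasi-likelihood test, Benjamini-Hochberg). The ratio of its summed counts, relative to the summed library totals, was 1.34. Its exact 95% interval for counting error, 0.840 to 2.14, includes 1, so no difference was detectable at this depth. The difference rested on the second AZD4573 library, without which the log2 fold change was -0.000903.

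**Figure D2:**
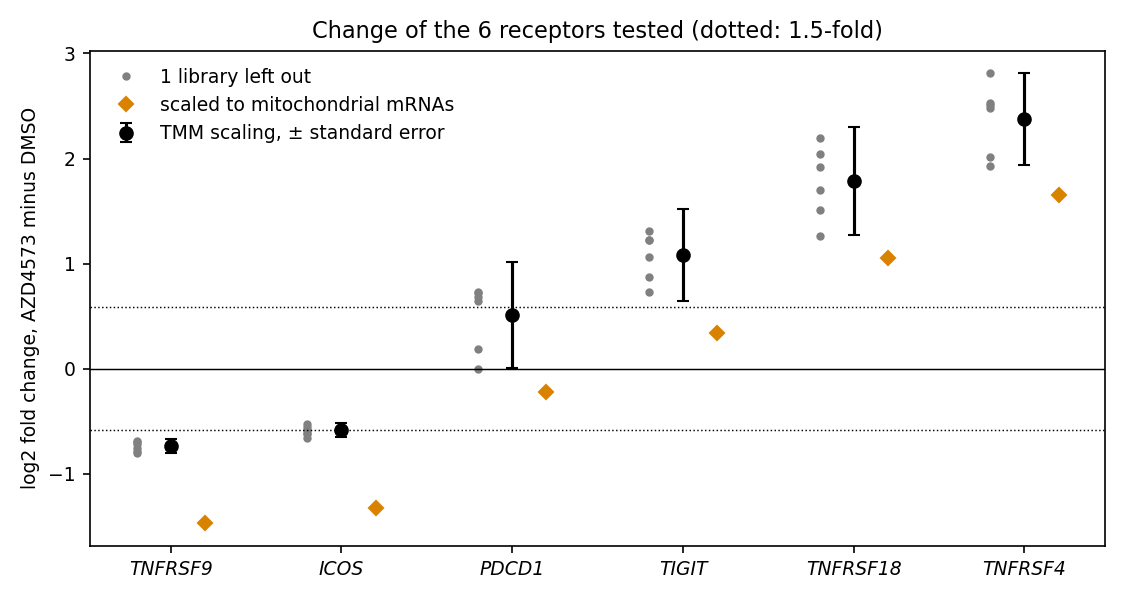
Log2 fold change (AZD4573 minus DMSO) of the 6 receptors tested, with TMM scaling and its standard error (black), with each of the 6 libraries left out in turn (grey) and scaled to mitochondrial mRNAs (orange diamonds); dotted lines mark a 1.5-fold change. TNFRSF9 and ICOS were below 0 and TNFRSF4, TNFRSF18 and TIGIT above 0 throughout, and PDCD1 crossed 0.

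The other 4 receptors were too scarce to be tested. CD27, the receptor for CD70, had 0, 0 and 1 counts with DMSO and 5, 10 and 4 with AZD4573, and its libraries did not overlap. The ratio of its summed counts, relative to the summed library totals, was 23.6, with an exact 95% interval of 3.75 to 979 for counting error only. Without the filter on low counts its adjusted p was 0.00734 (edgeR quasi-likelihood test, Benjamini-Hochberg). CD27 shares 562 of its 1322 exon bases with CD27-AS1 on the opposite strand, which had 8.05 ± 0.452 CPM with DMSO and 16.6 ± 0.780 CPM with AZD4573 (SD, n = 3; log2 fold change 1.15 ± 0.0766, SE). The study ran RSEM with its default parameters, which do not use strand, so reads from the shared bases cannot be told apart and the value of CD27 is uncertain.

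HAVCR2 had 6, 0 and 6 counts with DMSO and 6, 6 and 8 with AZD4573. The ratio of its summed counts, relative to the summed library totals, was 2.07 with an exact 95% interval of 0.962 to 4.64. LAG3 had 0, 3 and 2 counts and 0, 3 and 7 counts, a ratio of 2.48 (0.773 to 9.25). CTLA4 had 1, 0 and 0 counts and 0, 0 and 4 counts, a ratio of 4.96 (0.491 to 244). The intervals of all 3 include 1, and no difference was detectable at this depth. HAVCR2 shares 50 exon bases with MED7, a subunit of Mediator on the same strand, so that its few counts are uncertain as well.

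Summed over the 8 scarce receptors, the level was 0.483, 0.782 and 1.12 CPM in the DMSO libraries and 2.74, 2.69 and 1.93 CPM in the AZD4573 libraries. The groups did not overlap, and TNFRSF4 gave 29.9% ± 12.0 of these counts with DMSO and 50.5% ± 15.2 with AZD4573 (SD, n = 3). The sum of all 10 receptors was 83.5 ± 3.74 CPM with DMSO and 51.2 ± 1.62 CPM with AZD4573 (SD, n = 3), because the abundant pair outweighed the rest.

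Several of the genes lie side by side. TNFRSF18 (chr1:1203508-1206592) and TNFRSF4 (chr1:1211326-1214153) are separated by 4733 bases on the minus strand, and SDF4, an abundant gene for a calcium-binding protein of the secretory pathway, lies 2777 bases upstream of TNFRSF4 on the same strand. SDF4 had 326 ± 7.06 CPM with DMSO and 359.9 ± 7.02 CPM with AZD4573 (log2 fold change 0.25 ± 0.0413, SE), a smaller difference than that of both receptors. Per 1000 counts of SDF4 there were 0.239, 0.900 and 1.25 counts of TNFRSF4 with DMSO and 5.17, 2.66 and 2.60 with AZD4573. Whether the reads of TNFRSF4 came from its own promoter was not tested.

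On chromosome 2, CTLA4 (chr2:203853888-203873965) lies between CD28, 114975 bases away, and ICOS (chr2:203936763-203961577), 62797 bases away, with all 3 genes on the plus strand. The 3 neighbours differed in level: CD28 had 6.06 ± 0.471 CPM with DMSO and 4.19 ± 0.0908 CPM with AZD4573 (log2 fold change -0.43 ± 0.105, SE), ICOS had 39.0 and 24.2 CPM on average, and CTLA4 was at or near 0. TNFRSF9 (chr1:7915871-7943165) lies between the clock gene PER3, which fell (log2 fold change -1.33 ± 0.233, SE), and PARK7, which had a log2 fold change of 0.36 ± 0.0518 (SE). LAG3 lies 8402 bases from CD4, which rose (0.87 ± 0.103, SE) from 3.96 to 6.73 CPM. TIGIT lies 4211 bases from ZBTB20 on the opposite strand, and PDCD1 lies 32470 bases from NEU4, both of which rose from low levels (log2 fold change 1.98 ± 0.286 and 2.13 ± 0.193, SE).

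The ligands of the receptors were in part abundant in the same cells. Of 17 ligands 13 were tested, 6 fell and 2 rose, beside 23.7% and 22.7% of all genes, with a median log2 fold change of -0.52 against 0.03 over all genes. This and the lists that follow are described by counts, and no list was tested as a set. TNFSF9, the ligand of TNFRSF9, fell from 848, 834 and 764 counts to 123, 150 and 128 counts (log2 fold change -2.19 ± 0.108, SE). There were 3.89 ± 0.288 counts of TNFRSF9 for each count of TNFSF9 with DMSO and 10.8 ± 1.47 with AZD4573 (SD, n = 3), without overlap between the groups.

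TNFSF18, the ligand of TNFRSF18, fell from 132, 150 and 130 counts to 19, 19 and 17 (log2 fold change -2.48 ± 0.228, SE) while its receptor rose. TNFSF4, the ligand of TNFRSF4, had 1.66 ± 0.265 CPM and 1.08 ± 0.252 CPM (SD, n = 3; log2 fold change -0.52 ± 0.215, SE, adjusted p = 0.0416 by the edgeR quasi-likelihood test (Benjamini-Hochberg)) and was not called at 1.5-fold. CD70, the ligand of CD27, had 44.4 ± 1.04 CPM and 31.0 ± 1.55 CPM (log2 fold change -0.42 ± 0.0536, SE), with its receptor near 0 in the DMSO libraries.

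Among the ligands of the inhibitory receptors, PVR, NECTIN2 and NECTIN3, which TIGIT binds, all fell (log2 fold change -1.20 ± 0.052, -0.79 ± 0.0844 and -1.46 ± 0.246, SE). CD274, which encodes PD-L1, fell from 42, 37 and 39 counts to 1, 4 and 7 counts (-2.86 ± 0.475, SE). CD80 and CD86, which CTLA4 binds, were too scarce to be tested, and FGL1, a ligand of LAG3, was at 0 in all 6 libraries. LGALS9, which encodes galectin-9, rose from 27.4 ± 2.51 to 45.5 ± 0.815 CPM (log2 fold change 0.84 ± 0.0636, SE), and its close relatives LGALS9B and LGALS9C together had 37 to 89 counts per library.

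ICOSLG, the ligand of ICOS, was higher by 0.68 ± 0.0475 (SE) on the log2 scale and was called, but it has a near-identical copy in the table, ENSG00000277117, to which reads can be split. ICOSLG had 197 ± 9.09 CPM and 294 ± 13.5 CPM, the copy 149 ± 2.295 CPM and 107 ± 4.44 CPM, and both together 346 ± 9.41 CPM and 400.4 ± 17.7 CPM (SD, n = 3). ICOSLG thus took 56.9% ± 1.20 of the counts of the pair with DMSO and 73.4% ± 0.339 with AZD4573, and the increase of the sum was smaller than that of ICOSLG alone.

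**Figure D3:**
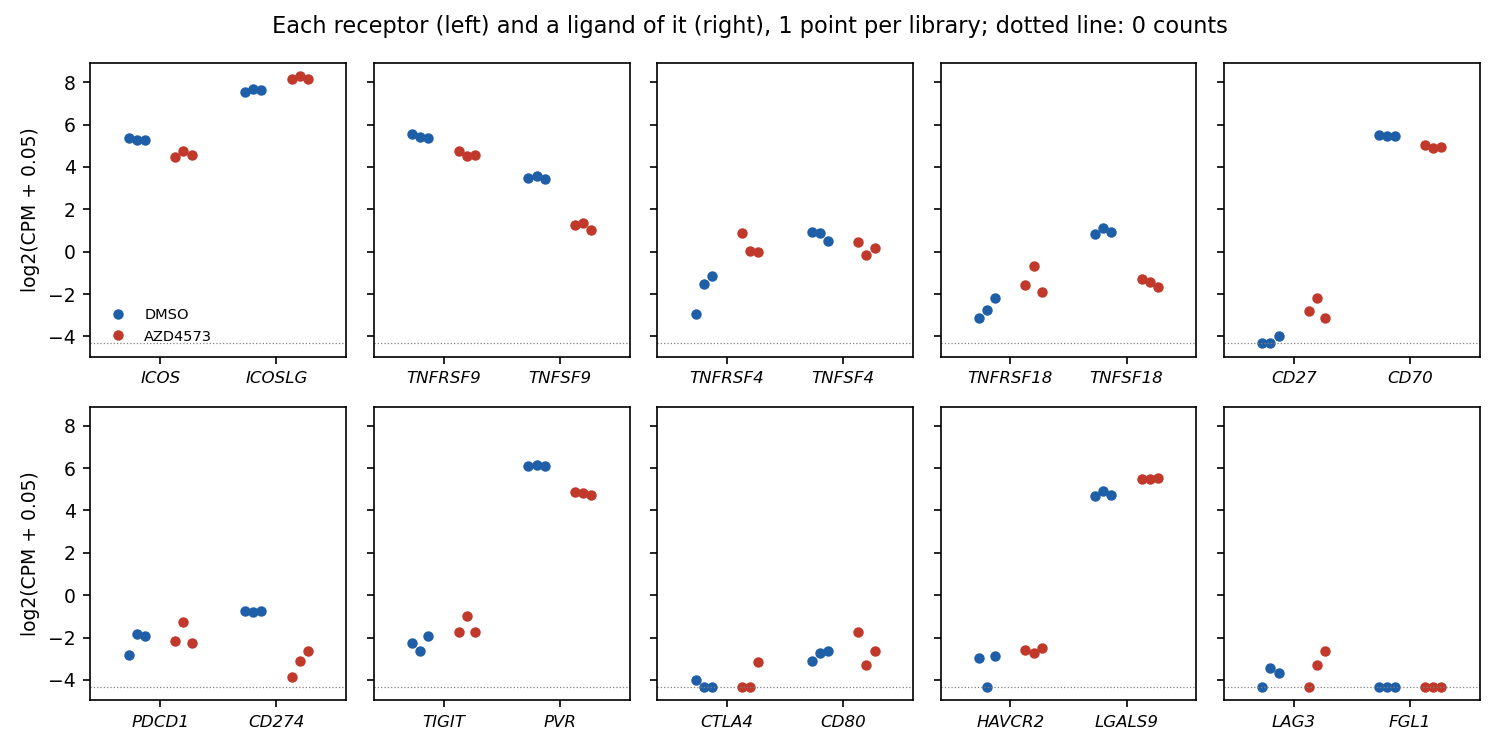
Log2(CPM + 0.05) of each receptor (left in each panel) and of 1 of its ligands (right) in the 3 DMSO (blue) and 3 AZD4573 (red) libraries; the dotted line marks 0 counts, and levels are not corrected for length, so groups are to be compared within a gene. TNFSF9, TNFSF18, CD274 and PVR were lower in all AZD4573 libraries, TNFRSF4 and TNFRSF18 were higher, and FGL1 was at 0.

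Of 22 other co-receptors of T cells, 19 were tested, 3 fell and 6 rose, beside 23.7% and 22.7% of all genes, with a median log2 fold change of 0.34. Several of those that rose had a mean under 1 CPM, a level at which 37.4% of all genes rose and 13.4% fell. TNFRSF8 (CD30), a TNF receptor that marks several T-cell lymphomas, fell from 172 ± 3.04 to 48.5 ± 4.07 CPM (log2 fold change -1.72 ± 0.0558, SE), and TNFRSF1B, the second TNF receptor, fell by 0.91 ± 0.0593 (SE) on the log2 scale. VSIR (VISTA), an inhibitory receptor, also fell (-1.29 ± 0.127, SE). CD226, which costimulates T cells by binding the ligands of TIGIT, rose from 24, 18 and 16 counts to 189, 257 and 289 counts (log2 fold change 4.06 ± 0.2, SE). BTLA, an inhibitory receptor, rose from 6, 2 and 4 counts to 39, 82 and 52 counts (4.22 ± 0.451, SE). Its mean was 0.0545 CPM with DMSO, close to the limit of detection, and 0.981 CPM with AZD4573, so the size of its rise is uncertain. TMIGD2, a costimulatory receptor, rose from 8.91 to 15.7 CPM.

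All 18 proteins of the list that act behind the receptors were tested, 2 fell and 1 rose, beside 23.7% and 22.7% of all genes. By the adjusted p alone 6 were lower and 9 higher, beside 37.4% and 37.3%, with a median log2 fold change of 0.11. PIK3R1, the regulatory subunit through which phosphoinositide 3-kinase binds ICOS, fell from 110 ± 1.41 to 27.7 ± 0.989 CPM (log2 fold change -1.88 ± 0.0482, SE). TRAF5, an adaptor of TNFRSF4, TNFRSF18 and CD27, fell from 33.1 ± 1.25 to 10.7 ± 0.774 CPM (-1.52 ± 0.0656, SE). BIRC2, a ubiquitin ligase of the TRAF complex, rose by 0.59 ± 0.0484 (SE), just past the threshold.

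Of 18 transcription factors known to act on these receptor genes in T cells, 17 were tested, 9 fell and 2 rose, beside 23.7% and 22.7% of all genes, with a median log2 fold change of -0.61. PRDM1 (BLIMP-1), a factor of terminal differentiation that promotes inhibitory receptors, fell from 4.64 ± 0.254 to 0.833 ± 0.0898 CPM (log2 fold change -2.37 ± 0.15, SE). TBX21 (T-bet), known to repress PDCD1, fell by 2.11 ± 0.222 (SE) on the log2 scale, and FOXO1 fell by 1.84 ± 0.0856 (SE). TOX2, of the family that drives the exhaustion programme, rose from 4.85 to 7.14 CPM (0.66 ± 0.0939, SE). Over the 4 lists of 75 genes, 67 were tested, 20 fell and 11 rose, beside the same shares, with a median log2 fold change of -0.18.

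**Figure D4:**
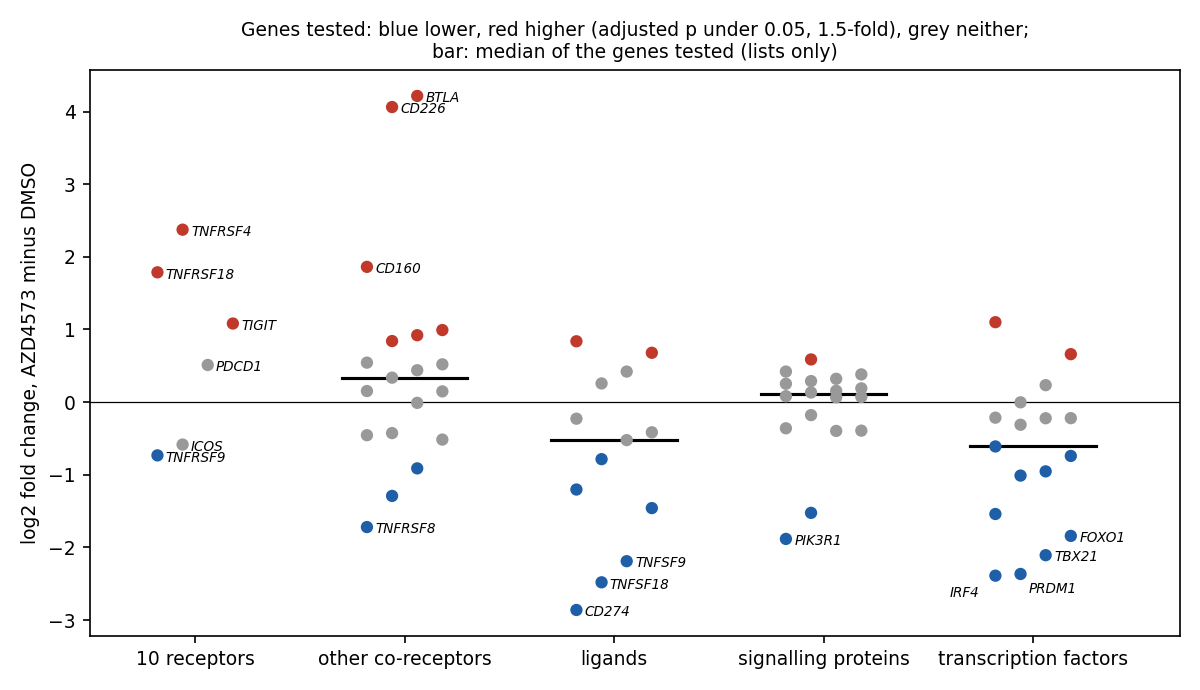
Log2 fold change (AZD4573 minus DMSO) of the genes tested among the 10 receptors (6 genes), 22 other co-receptors (19), 17 ligands (13), 18 signalling proteins (18) and 18 transcription factors (17); points are genes, blue lower and red higher at an adjusted p under 0.05 and 1.5-fold, grey neither, and bars mark the median of the genes tested in each of the 4 lists. Of the signalling proteins, PIK3R1 and TRAF5 fell and BIRC2 rose, and 9 transcription factors fell.

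All of these values are relative to the other transcripts in a library, the CPM to its total and the log2 fold changes to that total adjusted by TMM factors. When the libraries were instead scaled to the 13 mitochondrial mRNAs, the median log2 fold change over all genes was -0.71 rather than 0.03, 9433 genes were called lower and 1769 higher. On that scale ICOS and TNFRSF9 were both called lower (log2 fold change -1.33 and -1.47), TNFRSF4 was still called higher (1.66, adjusted p = 0.00194, edgeR quasi-likelihood test, Benjamini-Hochberg), TNFRSF18 (1.05, adjusted p = 0.0682) and TIGIT (0.34, adjusted p = 0.484) were not, and PDCD1 was at -0.23. The direction of ICOSLG, BIRC2 and TOX2 also turned. LGALS9 (0.098, adjusted p = 0.252) and TMIGD2 (0.18, adjusted p = 0.0614) were no longer called higher (edgeR quasi-likelihood test, Benjamini-Hochberg). This scaling shifts all genes by about the same amount, so it leaves the order of the genes as it was.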

How the data were processed

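Bulk RNA-seq of H9 cells was compared between 3 libraries treated with DMSO and 3 treated with AZD4573, grouped by their labels. According to the study's methods, the authors trimmed reads with Cutadapt 2.3, used STAR 2.7.8a for alignment to GRCh38 and RSEM 1.3.3 for gene-level quantification, and the deposited expected counts are whole numbers that are not normalized. The labels describe poly(A) selection whereas the methods describe ribosomal RNA depletion with a stranded kit, and RSEM was run with its default parameters, which do not use strand. Of 61546 entries, 5 were reporter sequences. The dose of 50 nM comes from the study's text and the time of 4 hours from the labels.

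Genes were filtered with edgeR 4.0.16 in R 4.3.3 (minimum count 10, 17678 genes), given TMM factors and tested with the quasi-likelihood method, p-values being adjusted after Benjamini-Hochberg, and a call required an adjusted p under 0.05 and a 1.5-fold difference or more. On simulated data both edgeR and DESeq2 1.42.0 were tested and recovered the changed genes. Those were drawn from genes with more counts than the scarce receptors have, so the simulation does not cover calls at such low counts. Levels per kilobase used the union of exons in GENCODE 44, the source of gene positions. Promoter windows of RefSeq (GRCh38.p14) were searched on both strands. The receptors and lists were chosen with earlier results of these data known. All 10 receptors, the nearest tested protein-coding neighbours, genes overlapping a receptor, and up to 3 genes per list and direction with the largest changes and at least 1 CPM were named; BTLA, CD274, CD70, TNFSF4, PVR, NECTIN2, CD80, CD86 and FGL1 were named after their values were seen. Nothing in the labels says that libraries came from separate cultures, so p-values measure only the spread between these libraries. No 2 libraries agreed within sampling noise (chi-square per degree of freedom 5.59 to 21.2). Alternatives were other scalings, filters, thresholds and tools, a replicate block and leaving out each library.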

Additional observations from a re-analysis of the deposited data

How the results depend on the processing

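The count of receptors called lower was 0 with a fold of at least 2, and 2 with no fold threshold, with library size as the only scaling, with mitochondrial scaling, with no filter and with the replicate block, and 1 to 2 with 1 library left out. ICOS was the gene added in each of these. The count called higher was 1 with mitochondrial scaling, 0 where at least 10 counts were required in every library, which left only ICOS and TNFRSF9 to test, and 1 to 3 with 1 library left out. The adjusted p of TIGIT (log2 fold change 0.73 to 1.31 with 1 library left out) missed the threshold with library size only (0.98), no filter (1.04), the replicate block (1.05, adjusted p = 0.0819 by edgeR), DESeq2 (1.10) and mitochondrial scaling (0.34), and that of TNFRSF18 (1.27 to 2.20 with 1 library left out) with mitochondrial scaling (1.05). PDCD1 was not called in any setting run and turned with mitochondrial scaling (-0.23) and without AZD4573 replicate 2 (-0.000903); ICOSLG (-0.060), BIRC2 (-0.15) and TOX2 (-0.077) turned with mitochondrial scaling. TNFRSF9 kept its direction and its call in all settings but the fold of at least 2. Over all genes, 2450 were lower and 2643 higher with a fold of at least 2, 6606 and 6596 with no fold threshold, and 9433 and 1769 with mitochondrial scaling. In the 4 lists, 32 were lower with no fold threshold and 41 with mitochondrial scaling, and 4, 26 and 3 were higher with a fold of at least 2, no fold threshold and mitochondrial scaling. BIRC2 fell short of 1.5-fold with library size only (log2 fold change 0.48) and no filter (0.55). It ranged from 0.55 to 0.62 with 1 library left out. Of the transcription factors, 1 to 2 were called higher with 1 library left out, and 1 with DESeq2, the replicate block or library size only. With the longest transcript as length, the DMSO level per kilobase was 0.0434 CPM for TIGIT, 7.45 for TNFRSF9 and 0.0203 for HAVCR2. Same-numbered libraries did not deviate together (correlations -0.0209, 0.0417 and 0.0318), so the replicate numbers were not taken as pairs. Except where an alternative's construction shows it, the cause of a change was not tested. Depth limits the 8 scarce receptors, each with fewer than 100 counts per library.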
